A study of Mus musculus with 6 samples.

Results

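Mest is an imprinted gene, read mainly from the father's chromosome, and it was followed here together with 9 further imprinted genes of growth: Peg3, H19, Igf2, Dlk1, Grb10, Plagl1, Ndn, Sgce and Igf2r. The members were chosen by name, as non-control probes whose accession maps to one of these 10 symbols, on the log2 processed signal relative to each array's 75th percentile. The difference between knockout and wild-type skin was in view when they were chosen, so it is described below without a test. Of 55681 probes on the array, 16 belonged to 9 of the 10 genes. No probe was matched to H19, which is not analysed here. Of the 9 genes, 8 had a probe that was clearly detected (well above background, as the scanner software flags it) on every WT array or on every KO array, and Igf2 did not.

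The samples were whole skin of 6 untreated male mice of mixed C57Bl6/129Sv background, given as collected while hair follicles rested (telogen). The 3 wild-type (WT) mice, replicates 1, 2 and 3, were 20, 19 and 18 weeks old. The 3 mice that lacked the transcription factor gene Sox4 conditionally in skin (KO) were 17, 18 and 16 weeks old. The sources used here do not name the driver of the deletion. RNA of each skin was hybridised to its own 1-colour Agilent array. WT replicate 1 shared a slide (slide 1) with KO replicate 3, WT replicates 2 and 3 shared another (slide 2) with KO replicate 1, and KO replicate 2 was alone on its slide. Values are log2 signal relative to the array's 75th percentile unless said otherwise, so a gene at 0 was as bright as that percentile. Probes differ in brightness for reasons unrelated to abundance, so levels are compared between skins and not between genes.

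Imprinted genes are read from 1 parental copy through marks, DNA methylation above all, set in the germ line, and many of them adjust growth before and after birth. Igf2 is the paternally expressed growth factor, Igf2r the maternally expressed receptor that clears it, and Grb10 an adaptor that dampens insulin and insulin-like growth factor receptors. Plagl1 and Peg3 are zinc finger regulators, Dlk1 holds back fat cell formation, and Mest, a protein of the alpha/beta hydrolase family, is known for its strong variation between individual mice in expanding fat. Most of these genes are high in the embryo and decline after birth.

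Sox4 itself, the targeted gene, was 11.8-fold lower in KO by its brighter probe, and all KO arrays lay below all WT arrays. Before scaling, the 75th percentile lay between 380.3 and 606.7 units, between 52.1% and 66.4% of probes were well above background, and no spot was saturated. The epidermal keratins Krt14 (6.36 to 6.91) and Krt10 (8.28 to 8.52) were bright on all 6 arrays. Over all 22822 genes and unnamed transcripts tested, 64.1% had a negative log2 fold change and the median was −0.09.

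Promoters of the genes the results turn on are printed here because imprinting acts through CpG-rich sequence at such starts. Sequences are those of RefSeq, build GRCm38.p6, each covering 250 bases before to 50 bases after a transcript start and read along the gene's strand. Capitals mark TGCCGC, the letters bound by the imprint-maintaining protein ZFP57 when methylated, searched on both strands (GCGGCA on the other). The first Mest window lies on the plus strand at chr6:30733256-30733555, the second on the plus strand at chr6:30737800-30738099, and a further window of the table overlaps the second almost wholly. Peg3 lies on the minus strand at chr7:6730370-6730669. Nnat, an imprinted gene outside the 10 whose values followed those of Mest, lies on the plus strand at chr2:157559828-157560127.
Mest, first start: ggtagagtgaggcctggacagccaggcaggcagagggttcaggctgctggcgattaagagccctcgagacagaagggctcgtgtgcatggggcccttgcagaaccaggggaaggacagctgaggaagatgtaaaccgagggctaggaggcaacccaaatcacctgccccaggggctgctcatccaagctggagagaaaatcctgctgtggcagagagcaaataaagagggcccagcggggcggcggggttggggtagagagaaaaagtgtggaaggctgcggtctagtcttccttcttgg
Mest, second start: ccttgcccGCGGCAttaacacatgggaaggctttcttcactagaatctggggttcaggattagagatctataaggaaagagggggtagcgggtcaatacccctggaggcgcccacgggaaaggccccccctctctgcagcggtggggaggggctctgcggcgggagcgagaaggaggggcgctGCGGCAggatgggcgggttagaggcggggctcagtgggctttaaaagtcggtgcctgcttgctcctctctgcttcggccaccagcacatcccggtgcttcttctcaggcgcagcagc
Peg3: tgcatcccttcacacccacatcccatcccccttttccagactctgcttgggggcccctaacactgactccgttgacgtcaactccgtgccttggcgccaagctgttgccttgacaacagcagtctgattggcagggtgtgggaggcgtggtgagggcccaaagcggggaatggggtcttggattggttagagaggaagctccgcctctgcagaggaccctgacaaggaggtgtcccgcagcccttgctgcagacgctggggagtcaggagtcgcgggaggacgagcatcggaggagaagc
Nnat: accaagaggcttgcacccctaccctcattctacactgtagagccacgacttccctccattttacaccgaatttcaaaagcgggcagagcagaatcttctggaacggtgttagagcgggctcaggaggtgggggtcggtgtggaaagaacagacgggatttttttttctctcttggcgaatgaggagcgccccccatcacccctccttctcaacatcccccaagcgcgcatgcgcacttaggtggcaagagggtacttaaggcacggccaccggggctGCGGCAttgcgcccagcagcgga

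The second Mest window held 2 copies of TGCCGC and 17 CpG dinucleotides, while the first held no copy and 8 CpG. The Nnat window held 1 copy and 17 CpG, and the Peg3 window none and 13 CpG. Of the 10 genes, 8 had a window in the table, 14 windows in all. CpG counts lay above the median of all 32841 windows, which was 7, in 12 of the 14, the other 2 being the Igf2 windows with 7 and 2. TGCCGC was found in 5 of 14 windows, belonging to Mest, Igf2, Grb10 and Plagl1, against 11.6% of all windows. The 2 overlapping Mest windows were counted separately, though they share the same copies. The letters hold a CpG themselves, and the windows compared were not matched for CpG content. The letters ACAAAG, a core that Sox factors bind, were found in 0 of 14 windows on either strand, against 18.7% of all windows. These counts describe letters only and say nothing of binding.

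**Figure D1:**
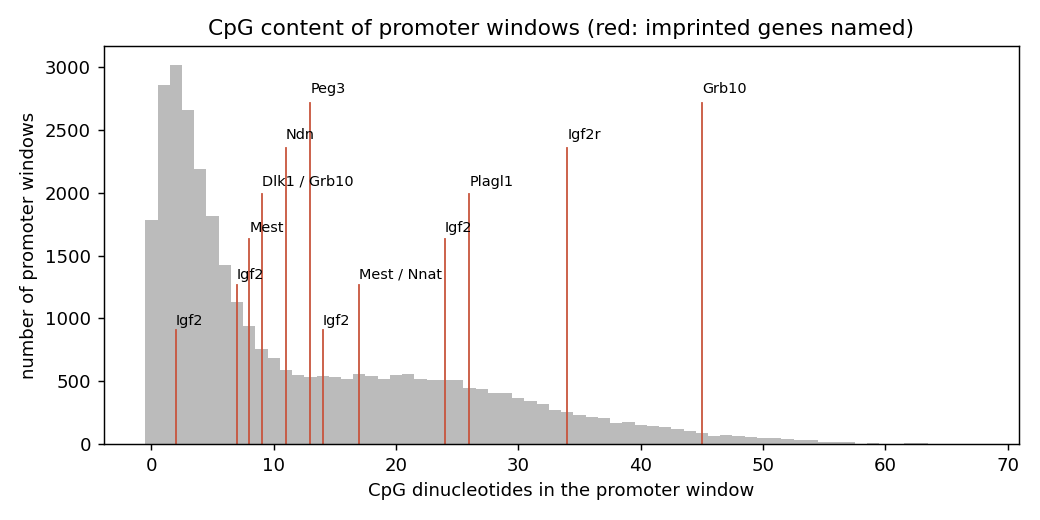
Number of RefSeq promoter windows of 300 bases (vertical axis, grey bars) by their count of CpG dinucleotides (horizontal axis), with red lines at the counts of the imprinted genes named, some of which have several starts. The second Mest start and Nnat both hold 17, and the windows run from 2 (an Igf2 start) to 45 (a Grb10 start).

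Mest was low in all 3 KO skins and varied widely among the WT skins. Its brightest probe, printed as 10 spots on each array, read −2.24, 2.20 and −0.76 in WT replicates 1, 2 and 3 and −2.31, −2.70 and −2.53 in KO replicates 1, 2 and 3. In processed units these were 80.5, 2238 and 259.1 for WT and 122.3, 78.3 and 85.2 for KO, before scaling. WT replicate 2 lay 26.2-fold and WT replicate 3 3.38-fold above the KO mean, while WT replicate 1 lay 1.21-fold above it. The KO arrays lay below the WT arrays by a gap of 0.071, which is smaller than the range among the KO skins (0.389). Single spots on WT replicate 1 had an SD of 0.159, which measures neither the error of a mean of 10 spots nor the spread between animals. WT replicate 1 thus lay at the level of the KO skins, and WT replicates 2 and 3 above it.

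The mean was −0.27 ± 2.26 in WT and −2.52 ± 0.20 in KO (SD, n = 3 each), a log2 fold change of −2.25 (SE 1.03), or 4.75-fold lower in KO. Without WT replicate 2 the log2 fold change was −1.02, and without WT replicate 1 it was −3.24. Within slide 1 it was −0.29 (KO replicate 3 against WT replicate 1) and within slide 2 −3.03 (KO replicate 1 against WT replicates 2 and 3). The 2 mice of 18 weeks, KO replicate 2 and WT replicate 3, differed by −1.94. With normexp background correction and quantile normalization it was −1.70, and the groups did not overlap under any of the 4 scalings tried.

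Among the WT skins Mest spanned 21.7-fold, and among the KO skins 1.31-fold. Its SD over the WT arrays was the 14th largest of 22822 genes and transcripts, and its SD over the KO arrays stood at the 56.2 percentile. The 10 spots agreed closely on every array, with SDs of 0.063 to 0.159 on the log2 scale (9 spots used on KO replicate 3), so the difference between WT skins was far above the spot error. A pair of other Mest probes, both annotated to another Mest transcript than the brightest, gave the same order of the 2 highest skins. The first read −3.35, 0.97 and −1.85 in the WT skins and −3.34, −4.55 and −4.03 in the KO skins (the last 2 not well above background), with a log2 fold change of −2.56, and it overlapped between groups because WT replicate 1 lay just below KO replicate 1. The second was well above background in WT replicates 2 and 3 only and read −2.45 and −3.92 there. WT replicate 1 read −6.56 by it, within the KO values of −6.64 to −5.76, so the groups overlapped. By group means the second probe lay at least 1.27-fold higher in WT than in KO. For this bound the KO arrays were held at the level of the dimmest measured probes, or their own if higher.

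**Figure D2:**
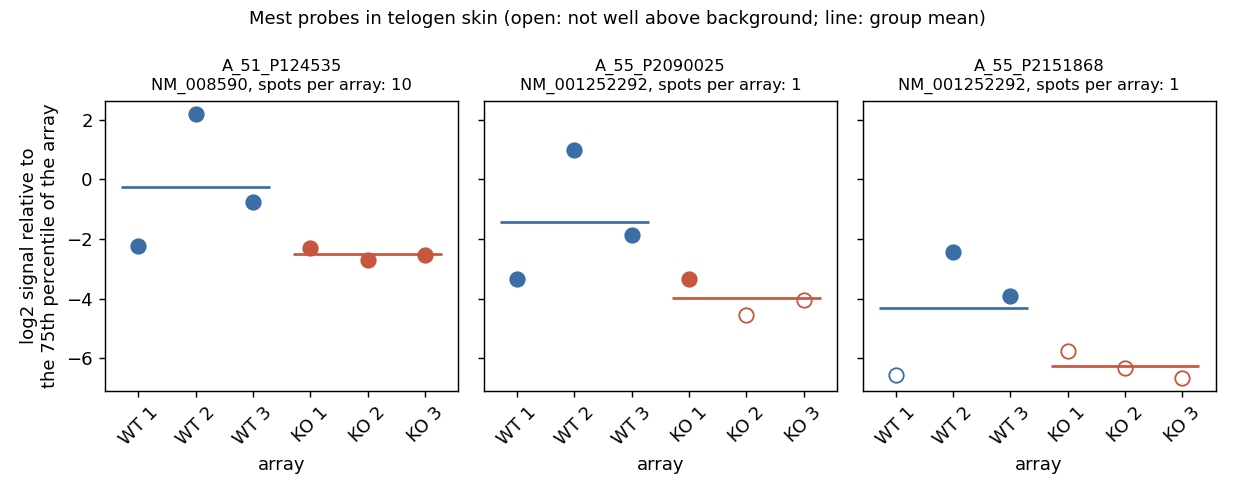
Log2 signal relative to the array's 75th percentile (vertical axis) for the 3 Mest probes on each array (horizontal axis), WT in blue and KO in red, lines at the group means and open points not well above background. WT replicate 2 is highest and WT replicate 3 second in every panel, while WT replicate 1 lies at the level of the KO skins.

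The intron-hosted microRNA miR-335 is made from the Mest locus, and its 5p arm is printed as background, with the seed (bases 2 to 8) in capitals. It lies on the plus strand at chr6:30741314-30741336 of GRCm38.p6, and was not measured by the probes described.
mmu-miR-335-5p: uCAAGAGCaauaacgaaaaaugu

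The growth factor Igf2 lay near the detection limit. Its probe was well above background on 1 of 3 WT arrays and 2 of 3 KO arrays, and read −4.57, −5.48 and −2.95 in the WT skins and −3.64, −4.14 and −3.90 in the KO skins. The groups overlapped, WT replicate 3 being highest and WT replicate 2 lowest. The log2 fold change of 0.44 (SE 0.63) became −0.14 without WT replicate 2 and 1.13 without WT replicate 3.

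Dlk1, the membrane ligand also called Pref-1, read −2.77, −2.65 and −2.41 in the WT skins and −1.94, −2.97 and −1.83 in the KO skins. KO replicates 1 and 3 were above every WT skin and KO replicate 2 below every one. The log2 fold change was 0.36 (SE 0.31), with 0.94 and 0.59 within slides 1 and 2, and ran from 0.15 without KO replicate 3 to 0.72 without KO replicate 2. A dimmer second probe was detected on no array.

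The receptor Igf2r, also measured by 10 spots, read 1.55, 1.06 and 1.32 in the WT skins and 1.37, 1.55 and 1.51 in the KO skins. The groups overlapped and the log2 fold change was 0.17 (SE 0.15), or 0.04 without WT replicate 2 and 0.29 without WT replicate 1. Here the spot SDs were 0.060 to 0.078, and WT replicate 2, the skin with the highest Mest, was the lowest.

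Grb10, the adaptor of insulin receptors, read −1.82, −1.87 and −0.98 in the WT skins and −1.48, −1.26 and −1.18 in the KO skins. WT replicate 3 was the highest skin and the other WT skins the lowest, with a log2 fold change of 0.25 (SE 0.26). The groups overlapped, and within slides 1 and 2 the differences were 0.65 and −0.05. It was 0.10 without WT replicate 2 and 0.54 without WT replicate 3.

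Peg3 was the member other than Mest whose groups did not overlap, and it ran the other way. Its brighter probe read −2.82, −2.36 and −2.45 in the WT skins and −1.68, −1.87 and −2.13 in the KO skins. Every KO skin lay above every WT skin by a gap of 0.232, with a log2 fold change of 0.65 (SE 0.18) or 1.57-fold higher. The difference was 0.69 within slide 1, 0.73 within slide 2, 0.58 between the mice of 18 weeks, and 0.51 to 0.77 with 1 array left out. With normexp background correction and quantile normalization the log2 fold change was 0.41 and the groups overlapped. The dimmer Peg3 probe, detected on KO replicate 1 only, also read higher on every KO array.

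Plagl1, the zinc finger regulator known to act on other imprinted genes, had 4 probes. The brightest gave 2.03, 2.58 and 2.78 for the WT skins and 2.77, 2.50 and 2.46 for the KO skins, with a log2 fold change of 0.11 (SE 0.21). All 4 probes overlapped between groups, with log2 fold changes of −0.03 to 0.47. WT replicate 1 was lowest by the 2 bright probes.

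Ndn, which encodes necdin, a brake on proliferation, read 0.40, 0.41 and 0.71 in the WT skins and 0.56, 0.37 and 0.50 in the KO skins, with a log2 fold change of −0.03 (SE 0.14) that turned to 0.003 with median scaling. Sgce, which encodes epsilon-sarcoglycan of the membrane complex of muscle and other cells, read 1.57, 1.70 and 1.65 in the WT skins and 1.83, 1.69 and 1.64 in the KO skins, with a log2 fold change of 0.08 (SE 0.11). Both overlapped between groups. Sgce varied least among the members within WT, with an SD of 0.065.

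**Figure D3:**
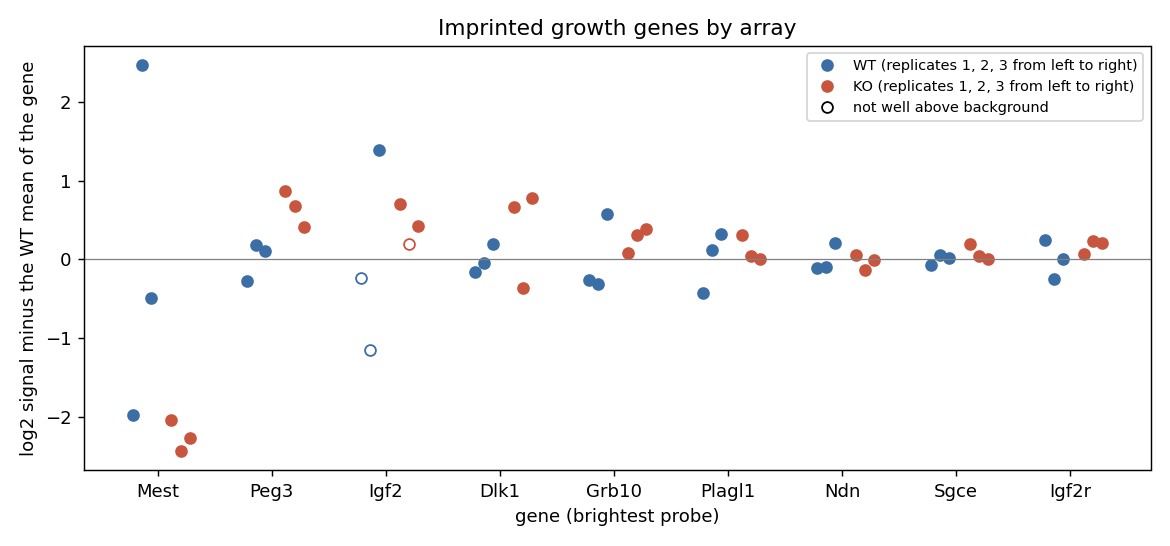
Log2 signal of each measured gene minus its own WT mean (vertical axis) for its brightest probe (horizontal axis), with WT replicates in blue and KO replicates in red, and open points not well above background. Mest spreads over 4.44 log2 units among the WT skins, and Peg3 is the one other gene with no overlap between groups.

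Of the 8 members tested, 6 had positive and 2 negative log2 fold changes. None (0 of 8) was called at limma's adjusted p of 0.05, a threshold that 0.0219% of all genes passed, 0.00438% as higher and 0.0175% as lower in KO. That split of the called genes turned round in some settings: 265 of 303 were higher without WT replicate 1, 72 of 88 without KO replicate 3 and 130 of 139 with age as a covariate. The groups did not overlap for 2 of the 8 members, 1 higher and 1 lower, and for 19.3% of all genes (7.58% higher and 11.7% lower). The members were chosen on this contrast, so nothing is read from these counts. The highest skin was not the same for all members: it was WT replicate 2 for Mest, WT replicate 3 for Grb10 and KO replicate 1 for Peg3. Each gene was centred on its own mean over the 6 arrays and compared with Mest by the root mean square difference. The other 7 tested members then ranked 7022nd (Plagl1, 1.68) to 13190th (Igf2r, 1.89) among the 14917 named genes compared. A flat gene would score 1.73. The measure is not scaled for spread, so a gene that varies little scores near 1.73 whatever its order over the skins. These ranks therefore cannot tell whether a member shared the order of Mest.

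The 5 named genes nearest to Mest by that measure over the 6 arrays were Lep (0.748), Calcoco2 (0.763), Atp1a4 (0.767), Sowaha (0.802) and Nnat (0.817). They were picked for likeness to Mest in these same values, so their lower KO means were built into the choice and are only described. Calcoco2, Atp1a4 and Sowaha also passed the detection filter through the WT arrays only. Lep, the fat cell hormone leptin, read −0.55, 1.79 and 0.66 in the WT skins and −0.86, −1.83 and −0.76 in the KO skins. WT replicate 2 was highest, WT replicate 3 next, and WT replicate 1 close to the KO skins, as for Mest. Atp1a4, a sodium pump subunit, read −3.51, −1.64 and −2.85 in the WT skins and −4.50, −5.09 and −4.65 in the KO skins, and was detected on all WT arrays but only on KO replicate 1. Sowaha read −3.88, −1.01 and −1.32 in the WT skins and −3.87, −4.02 and −3.76 in the KO skins, with WT replicate 1 among the KO skins and KO replicate 2 not well above background. Calcoco2, a receptor of selective autophagy, was high in WT replicate 2 alone, at −0.82 against −4.60 to −3.50 on the other 5 arrays, of which KO replicate 2 did not detect it. Nnat, the imprinted gene for neuronatin, read −0.80, 1.69 and 1.39 in the WT skins and −1.26, −1.34 and −1.04 in the KO skins, and its second probe −1.36, 1.44 and 0.89 against −1.58, −1.71 and −1.55. Both Nnat probes placed all KO skins below all WT skins.

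**Figure D4:**
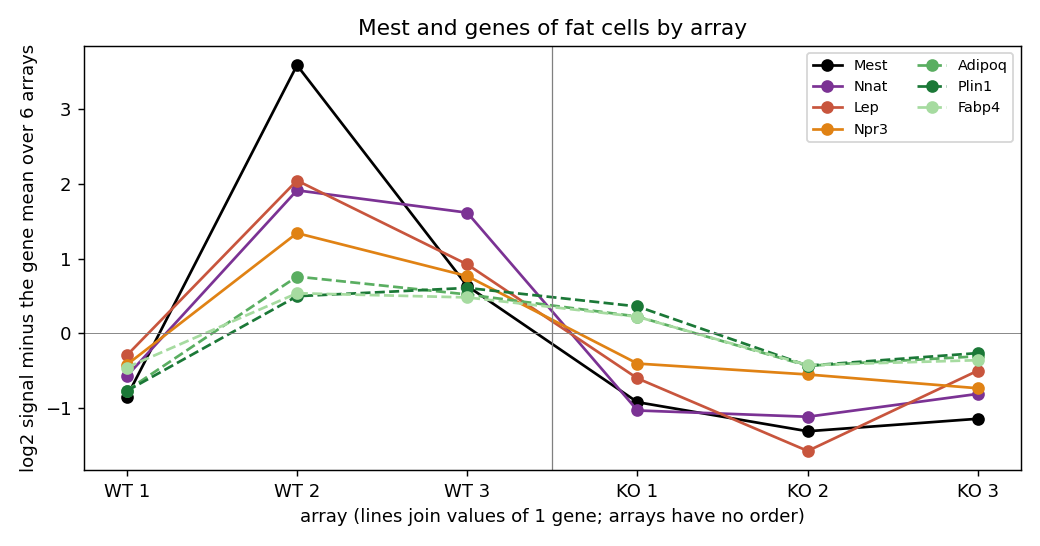
Log2 signal minus each gene's mean over the 6 arrays (vertical axis) for Mest, Nnat, Lep and Npr3 (solid lines) and for the fat cell genes Adipoq, Plin1 and Fabp4 (dashed lines) on each array (horizontal axis). Mest, Nnat and Lep are high in WT replicates 2 and 3 only, while the dashed genes are also above their mean in KO replicate 1.

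Mest was set beside the markers of cell types that whole skin holds. Bulk RNA cannot separate fewer cells of a type from less RNA per cell. All 27 white fat cell genes of the list were tested (the list holds Lep, Npr3 and Nnat too). Of the 27, 20 had negative log2 fold changes, against 64.1% of all genes, and the median was −0.18, against −0.085. The groups did not overlap for 5 (18.5%, against 19.3% of all genes), 3 higher and 2 lower in KO. Summed over the 27, the signal as multiples of the 75th percentile was 717.3, 1153 and 1168 for WT and 1327, 1087 and 1020 for KO. By this sum WT replicate 1 was lowest and KO replicate 1 highest. The list's score, the median over its genes of the log2 signal minus the gene's WT mean, was −0.62, 0.30 and 0.27 for WT and 0.06, −0.48 and −0.22 for KO. By the score WT replicates 2 and 3 lay above every KO skin, as for Mest, and WT replicate 1 lay lowest. Adipoq, the fat cell hormone adiponectin, read 3.74, 5.26 and 5.02 in the WT skins and 4.73, 4.07 and 4.19 in the KO skins, and the lipid droplet protein Plin1 1.95, 3.21 and 3.33 against 3.08, 2.29 and 2.45. With that score as a covariate, chosen after these values were seen, the Mest log2 fold change was −1.70.

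Skeletal muscle markers moved with the groups and with WT replicate 1. Of 33 tested, 31 had positive log2 fold changes. The groups did not overlap for 26 of the 33 (78.8%, against 19.3% of all genes), all higher in KO. Summed over the 33, the signal was 3512, 1286 and 974 multiples for WT and 4360, 5592 and 4118 for KO. WT replicate 1 lay nearest to the KO skins in muscle markers, as it did for Mest, in the opposite direction. The muscle score was 1.19, −0.51 and −0.67 for WT and 1.7, 2.19 and 1.53 for KO. Every KO skin thus lay above every WT skin. Adding this score to the model turned the Mest log2 fold change to 0.33, while that of Peg3 was 0.99. As the score separates the groups, muscle content and genotype cannot be told apart by this model. Hair shaft and root sheath markers (21 tested, 19 positive) summed to 49.9 to 63.0 multiples for WT and to 389.5, 269 and 48.3 for KO. The hair keratin Krt86 read −2.63 to −2.15 in WT and 4.25, 3.22 and −1.51 in KO. KO replicates 1 and 2 thus lay far above every other skin in these markers, although all skins are given as telogen. The hair stage of each skin was not tested. T and natural killer cell markers (13 tested) were all negative, as were 64.1% of all genes, at 17.4 to 19.2 multiples in WT and 8.82 to 11.1 in KO. Their median log2 fold change was −1.16, against −0.085 over all genes. The groups did not overlap for 12 of the 13 (92.3%, against 19.3% of all genes), all lower in KO. Limma called 1 of these markers lower, as it did 0.0175% of all genes. Keratinocyte markers (15 tested, all negative) had a median log2 fold change of −0.197, against −0.085 over all genes. Their scores were −0.25, 0.23 and 0.02 for WT and −0.23, −0.18 and −0.21 for KO. WT replicate 2 was highest and WT replicate 3 next, as for Mest, while WT replicate 1 lay just below every KO skin, unlike Mest. Their summed signal was 2212, 2846 and 2560 multiples for WT and 2175 to 2208 for KO. Fibroblast markers (20 tested, 16 negative) were 2817 to 3133 in WT and 2464 to 2779 in KO, and the 12 adipocyte progenitor markers tested 223.9 to 251.5 in WT and 208.6 to 238.9 in KO. The part of these cell types in the Mest difference was not tested.

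Imprinted genes outside the 10 did not move in 1 direction. Of 56 listed genes, 40 were tested, 20 with positive and 20 with negative log2 fold changes, against 64.1% negative of all genes. The median of the 40 was 0.001, against −0.085 over all genes. None of the 40 passed over all genes (smallest adjusted p = 0.273 by limma). Unadjusted p was under 0.05 for 5 of the 40, as for 11.7% of all genes. The groups did not overlap for 8 of the 40 (20.0%, against 19.3% of all genes), 5 higher and 3 lower in KO. Of all genes, 7.58% were higher and 11.7% lower without overlap. Nnat had the largest log2 fold change of the list, −1.97 (SE 0.63, limma adjusted p = 0.340). Among the settings run, it was called only without WT replicate 1, at −2.75 (limma adjusted p = 0.0245); within slide 1 it was −0.24 and within slide 2 −2.80.

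The other genes of the list with the smallest p were Asb4, Snrpn, Slc22a18, Ppp1r9a and Meg3. Asb4, a ubiquitin ligase adaptor, had a log2 fold change of 0.68 (SE 0.16, limma adjusted p = 0.273), and its second probe −0.05. Snrpn, a splicing protein gene, had 0.66 (SE 0.21), and its 3 probes all placed KO above WT, 1 of them not well above background on any array. The transporter Slc22a18 had −0.55 (SE 0.17). Ppp1r9a, which encodes neurabin, had 0.39 (SE 0.14). The long noncoding RNA Meg3 read 4.03, 3.30 and 3.70 in the WT skins and 4.07, 4.09 and 4.30 in the KO skins, with a log2 fold change of 0.48 (SE 0.20), and its 3 probes gave 0.45 to 0.88 with no overlap.

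**Figure D5:**
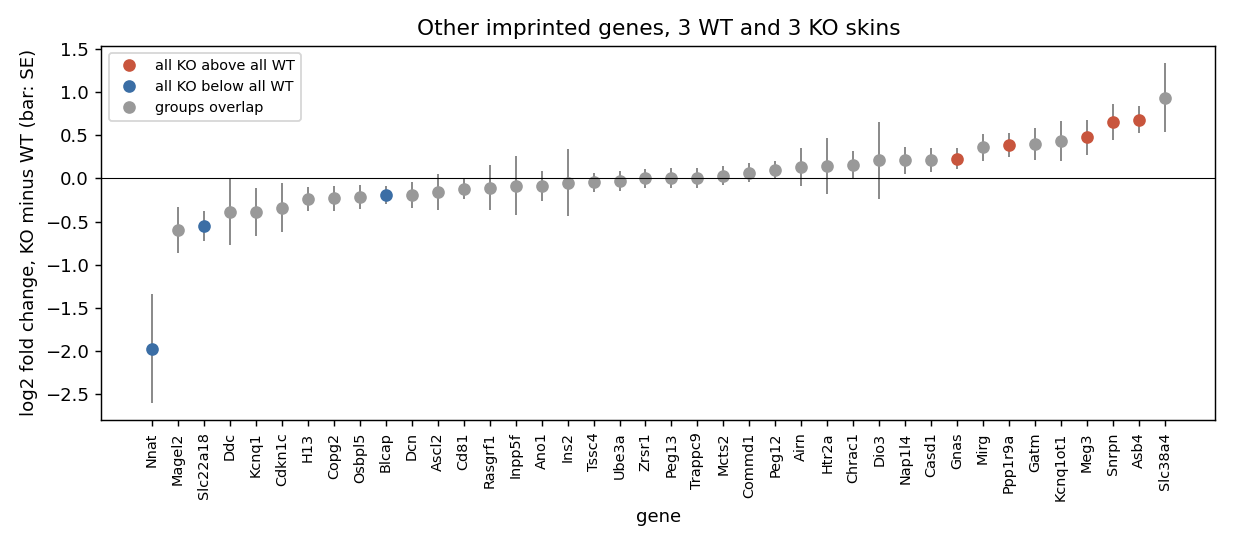
Log2 fold change, KO minus WT (vertical axis, bars are standard errors, 3 arrays per group), for the 40 other imprinted genes tested (horizontal axis), coloured by whether all KO skins lay above or below all WT skins. Nnat lies lowest at −1.97 and Slc38a4 highest at 0.94, with groups that overlap for Slc38a4.

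Genes next to the members in the RefSeq order, counting only genes that were tested, were described in the same way. Beside Mest, the ciliary gene Cep41 had a log2 fold change of −0.42 (SE 0.14) and the coat protein gene Copg2 −0.23 (SE 0.15), against −2.25 for Mest. Their second probes gave −0.06 for Cep41, with groups that overlapped, and −0.31 for Copg2. Beside Peg3, Zim3, whose probe is annotated to a noncoding RNA, had 0.73 (SE 0.46) and was detected on 1 WT array and all KO arrays. The olfactory receptor gene Olfr1350 had 0.04 (SE 0.36). Around H19 and Igf2, the mitochondrial ribosome gene Mrpl23 had 0.22 (SE 0.13) with no overlap, and the antisense RNA Igf2os 0.18 (SE 0.15). Beside Dlk1 lie Meg3, read from the mother's copy and described above, and Begain (0.06, SE 0.28). Grb10 lies between Ddc (−0.39, SE 0.39) and Cobl (−0.25, SE 0.22), and Plagl1 between Sf3b5 (−0.08) and Ltv1 (−0.07). The second Cobl probe gave 0.31, and the second Ddc probe, detected on WT replicate 3 only, gave −1.67. Beside Ndn, the nearest tested genes were Snrpn and Magel2 (−0.60, SE 0.26), which differed in sign. Beside Sgce, Casd1 had 0.22 and Ppp1r9a 0.39, and Peg10, whose start adjoins that of Sgce, was not well above background on any array. Further along that cluster, the paraoxonase Pon1, picked after its values were seen, read −0.83, −1.58 and −1.03 in the WT skins and 0.18, 0.29 and 0.29 in the KO skins (limma adjusted p = 0.174). Beside Igf2r, the antisense RNA Airn had 0.13 (SE 0.22) and the noncoding transcript 4732491K20Rik 0.17 (SE 0.12). A dimmer Airn probe, well above background on every array, gave 0.625 (SE 0.19), with every KO skin above every WT skin. None of these neighbours was called by limma.

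The insulin-like growth factor pathway around Igf2, Igf2r and Grb10 showed no gene past the threshold. Of 39 listed genes, 36 were tested, 15 with positive and 21 with negative log2 fold changes, against 64.1% negative of all genes. The median of the 36 was −0.06, against −0.085 over all genes. None was called by limma (smallest adjusted p = 0.340), and 1 of the 36 had an unadjusted p under 0.05, against 11.7% of all genes. The groups did not overlap for 6 (16.7%, against 19.3% of all genes). Htra1, a protease that cuts binding proteins, had −0.39 (SE 0.12) and the related receptor Insrr 0.67 (SE 0.28). Pappa2, another such protease, had −0.55 (SE 0.27), the insulin receptor Insr 0.23 (SE 0.12), and Igfals, which carries the growth factors in blood, −0.88 (SE 0.44). Igf1, the sister growth factor, read 1.90, 1.60 and 2.07 in the WT skins and 1.79, 1.66 and 1.67 in the KO skins, and the receptor Igf1r 1.92 to 1.95 in WT and 1.91 to 2.06 in KO. Both overlapped between groups.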

How the data were processed

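Each array's deposited file gives spot intensity from Agilent Feature Extraction 11.5.1.1 (version per the file headers), background-subtracted and not yet normalized between arrays. Flags in the same deposited files tell which spots are detected, saturated or outliers. The authors also deposited a log2 value table; the submitters' processing notes name limma, and the sources used here give no further step. Over 27351 probes, each of its 6 columns followed an array of the other group (r of 0.998 to 1) and not the one in its heading (r of −0.627 to −0.245), so groups were taken from the scanner files' own samples.

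Spots of a probe were averaged as log2 of the processed signal without flagged outliers, and the array's 75th percentile was subtracted. Probes were named through RefSeq accessions (GRCm38.p6; 27497 named, 28153 not), while the array grid refers to mm9. A probe was kept where every array of a group detected it, and the brightest represented each gene (22822 tested). The comparison of KO with WT used limma 3.58.1 (R 4.3.3) without covariates, two-sided, with Benjamini-Hochberg adjustment at 0.05; the fit was tested on simulated data. Members and lists were chosen with earlier results of these data known. Named were all members, the 6 genes per list with the smallest p (1 of them is not reported here), tested neighbours, the 5 genes nearest Mest, and defining markers. Alternatives were slide, replicate number, age, muscle and fat scores, scaling, filters, single probes, the value table and leaving out each array. Within a group the 3 mice differ in age and were taken as different animals. The number of arrays limits the precision.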

Additional observations from a re-analysis of the deposited data

How the results depend on the processing

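The count of genes called by limma, 5 in the comparison as reported, moved with the processing. It was 1 with slide as a block, 0 with the replicate block, 139 with age as a covariate and 0 with the muscle score. Unadjusted p was under 0.05 for 2215 genes with the replicate block and for 703 with the muscle score. It was 8 after normexp and quantile normalization, 15 with median scaling, 11 with quantile normalization alone, 2 with no filter, 9 with probes well above background on all arrays and 3 with all probes kept singly. In the deposited value table it was 8, read by the arrays followed or by headings, the latter with every sign turned. With 1 array left out it ran from 2 to 303 (leaving out WT replicate 1 gave 303, KO replicate 3 gave 88, KO replicate 1 gave 3, and each of the others gave 2), and for the other imprinted genes from 0 to 1 (Nnat). The cause was not tested. No member was called in the comparison as reported.

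With age as a covariate the differences of Dlk1, Grb10, Igf2 and Plagl1 turned negative (−0.39, −0.20, −0.49 and −0.24), while Mest was −3.07 and Peg3 0.60; age differs between the groups. Igf2r turned to −0.16 with the muscle score, which also differs between the groups. Leaving out WT replicate 1 turned Plagl1 to −0.10, and leaving out WT replicate 2 turned Igf2 to −0.14. Same-numbered WT and KO skins did not deviate together (correlations of −0.128, −0.04 and 0.08 over genes), so the replicate block pairs numbers only; it left the members' differences as they were. Normexp correction used spot and background medians, in place of the planned spot means.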

Other observations

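Other genes also varied widely among the WT skins, and those named were picked after their values were seen. Mstn, the muscle growth inhibitor myostatin, read 1.67, 0.795 and −2.97 in WT and 1.95 to 2.65 in KO. Myog and Mymx, genes of muscle cell formation and fusion, read −1.91, −4.53 and −0.31 and −3.01, −3.71 and 0.46 in WT, with KO values of −2.29 to −2.10 and −4.11 to −3.28. WT replicate 3 was thus high for both and low for Mstn, while Mest was highest in WT replicate 2. The transcript 4933425B07Rik had the largest WT spread of all, at 4.90 in WT replicate 2 against −4.78 to −3.09 on the other 5 arrays.

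Fat cell genes did not share one order over the skins. Npr3, a natriuretic peptide receptor, read −0.09, 1.67 and 1.09 in the WT skins and −0.08, −0.22 and −0.41 in the KO skins. WT replicate 2 was highest and WT replicate 3 next, as for Mest. The Npr3 groups overlapped, and it was not among the genes named above as nearest to Mest. Sfrp5, a secreted Wnt inhibitor of fat, read 1.37, 1.55 and 1.59 in the WT skins and 1.75 to 2.15 in KO, above WT in all 3 KO skins.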
